A study of Mus musculus with 6 samples.

Results

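The Gata genes Gata1 to Gata6 encode the GATA family of transcription factors. They were described across 6 RNA libraries, each from the distal mandible (the tip of the lower jaw primordium) of 1 mouse embryo at E10.75, about the middle of gestation. The members were chosen by gene symbol, and all 6 were found, each on 1 row, among 21827 listed genes. Each of 3 litters gave 1 embryo labelled mutant, Msx1f/f with Msx2f/f, and 1 labelled control, Msx1f/+ with Msx2f/f, and all of them are Rosa26mTmG/+ and carry Hand2-Cre. The mTmG reporter turns recombined cells green. No embryo is free of floxed Msx alleles, and by genotype those labelled control keep 1 unfloxed Msx1 allele. Hand2-Cre acts only in cells that have used Hand2 regulatory sequence. The green tissue was dissected and not sorted into single cell types, so epithelium, vessels and blood are included.

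GATA factors bind the DNA letters that give the family its name through a pair of zinc fingers. In textbook terms the family falls into Gata1 to Gata3, used in blood and neural tissue, and Gata4 to Gata6, used in heart and endoderm. Gata1 drives red blood cell and megakaryocyte differentiation. Gata2 acts in blood stem cells and endothelium and is also expressed in facial mesenchyme. Gata3, best known from T cells, sympathetic neurons and the inner ear, is expressed in mandibular mesenchyme and is needed for the jaw to form. BMP signalling is known to induce Gata2 and Gata3 in several embryonic tissues.

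Libraries are named below by litter, label and measured Msx1. Msx1, the homeobox gene whose floxed dose separates the labels, was at 1.90 TPM (a length-corrected share of each library's transcripts) in the litter 1 library labelled mutant and 84.1 TPM in its littermate labelled control. In litters 2 and 3 the libraries labelled control held the low values, 2.61 and 1.99 TPM, against 78.8 and 73.3 TPM in the libraries labelled mutant. The targeted gene therefore goes against the labels in litters 2 and 3. Each litter holds 1 library with Msx1 under 10 TPM, called low-Msx1 here, and 1 over 50 TPM, called high-Msx1. This order is taken from measured Msx1 for description only, without a test, and moves no library to another label. The number of reads per library is unknown.

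Markers of the dissected tissue were present in every library. The summed TPM of 8 genes of distal mandible mesenchyme lay between 938 and 1054, with Hand2 at 210.0 to 261 TPM. Epithelial markers summed to 112 to 129 TPM over 8 genes and endothelial markers to 95.3 to 113 TPM over 8 genes. Heart muscle markers summed to 2.75 to 7.93 TPM over 8 genes, of which 5, including the cardiac factor gene Nkx2-5, stayed under 1 TPM in every library.

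Gata3 and Gata2 were the most abundant members, Gata1 followed, and the heart and endoderm members were at trace levels. Averaged over the 6 libraries, Gata3 was at 7.40 ± 2.41 TPM, Gata2 at 5.80 ± 1.16 TPM and Gata1 at 1.77 ± 1.26 TPM (SD, n = 6 libraries across both labels). Gata6 was at 0.418 ± 0.267 TPM, Gata5 at 0.141 ± 0.128 TPM and Gata4 at 0.0379 ± 0.0707 TPM (SD, n = 6). Gata3 exceeded Gata2 in 4 of 6 libraries, and their ranges overlapped. The lowest Gata2 value, 4.31 TPM, lay just above the highest Gata1 value, 4.28 TPM. Gata1 and Gata6 overlapped slightly, at 0.895 TPM for the lowest Gata1 and 0.947 TPM for the highest Gata6 value, and the ranges of Gata6 and Gata5 overlapped as well.

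The family total and its makeup both varied between libraries. The 6 members summed to between 13.0 and 18.0 TPM per library. Gata2 and Gata3 together gave 9.78 to 16.4 TPM and Gata4 to Gata6 together 0.423 to 0.994 TPM, or 2.68% to 6.25% of the family total. Gata1 took 29.3% of the total in 1 library, that labelled mutant in litter 1, and 6.03% to 10.1% elsewhere. Only Gata1, Gata2 and Gata3 reached 1 TPM in at least 3 libraries, the filter for testing. Among the 12152 genes that did so, 35.9% had a lower mean than Gata3, 30.0% a lower mean than Gata2 and 8.62% a lower mean than Gata1.

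**Figure D1:**
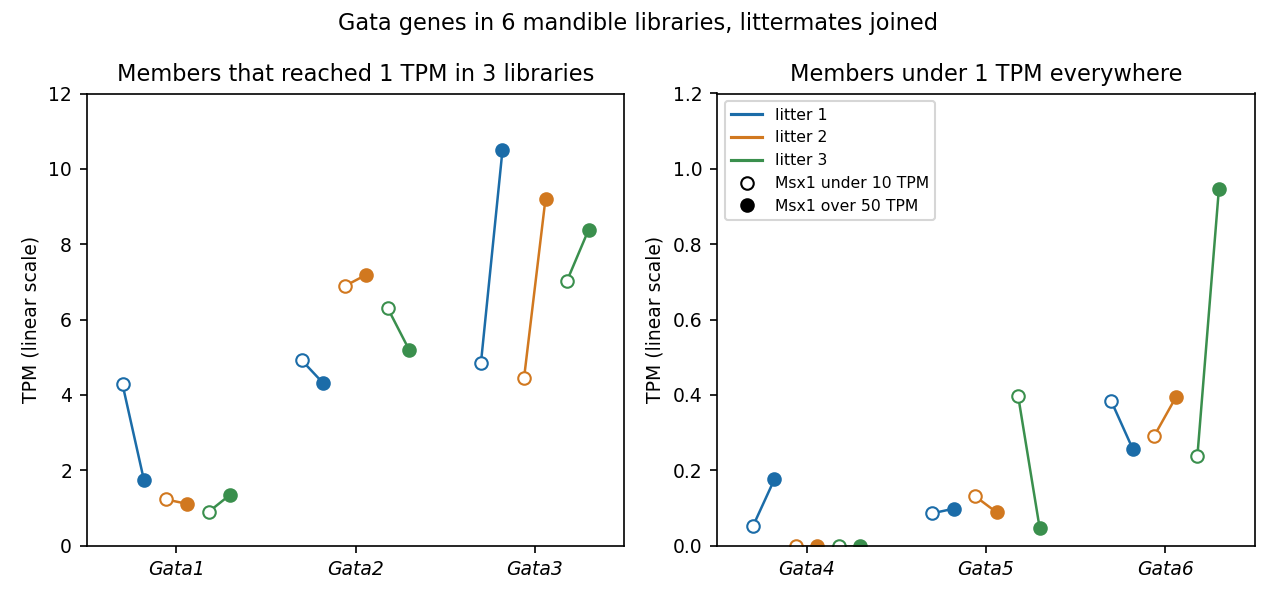
TPM of each Gata gene on a linear axis, with littermates joined by a line, open circles for libraries with Msx1 under 10 TPM and filled circles for those over 50 TPM; left, the 3 members that passed the filter, right, the 3 that did not, on a smaller scale. The open Gata3 circles, at 4.44 to 7.03 TPM, all lie below the filled ones, at 8.38 to 10.5 TPM.

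Gata3 was lower in the low-Msx1 library of every litter. Litter 1 had 4.86 TPM in its low-Msx1 and 10.5 TPM in its high-Msx1 library. The corresponding values were 4.44 and 9.21 TPM for litter 2, then 7.03 and 8.38 TPM for litter 3. The low-Msx1 values did not overlap the high-Msx1 values. The littermates were furthest apart in litters 1 and 2, where the high-Msx1 library held 2.16-fold and 2.07-fold more Gata3, and closest in litter 3, at 1.19-fold. On the log2(TPM + 1) scale the within-litter differences were -0.97, -0.91 and -0.22. Of all 12152 tested genes, 11.9% were lower in the low-Msx1 library of all 3 litters, and 4.95% were without overlap in that direction. In bulk tissue, fewer cells that express Gata3 and less Gata3 RNA per cell cannot be told apart.

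Gata3 has the same sign in the authors' own comparison. The direction is not stated in the authors' deposited table. Msx1 stands at -5.19 there on the log2 scale, so a negative value goes with lower Msx1. Limma on the labels as deposited put Msx1 at 1.41 ± 1.95 log2 units (SE), so the groups compared there do not match these labels. How the libraries were grouped there is not stated. For Gata3 the authors' deposited table gives -0.80 ± 0.29 (log2 fold change and its standard error). Its unadjusted p was 0.00636, rank 80 among the 17605 genes with a p, and its DESeq2 adjusted p was 1.000, so it did not pass. Past an adjusted p of 0.05, the authors' deposited table has 0.0343% of 14572 genes with a negative and 0.0618% with a positive sign. Under an unadjusted p of 0.05, 0.971% of 17605 genes are negative and 0.875% positive in the authors' deposited table. The table and the within-litter values come from the same embryos and are not independent.

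By the labels as deposited, Gata3 did not differ beyond the spread between embryos. It was at 7.48 ± 2.31 TPM (SD, n = 3) under the mutant label and 7.32 ± 3.03 TPM (SD, n = 3) under the control label. Limma put the labelled difference at 0.05 ± 0.30 log2 units (SE; adjusted p = 0.970). No gene of the 12152 passed in this comparison, 0% higher and 0% lower at a limma adjusted p of 0.05. Without adjustment, limma put 231 higher and 586 lower genes below an unadjusted threshold of 0.05, and 410 and 305 after median-of-ratios scaling. The label groups each mix low-Msx1 and high-Msx1 libraries.

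Several measures of the litter 1 libraries moved together with Gata3. In litter 1 the high-Msx1 library had the highest mitochondrial share of the series, 8.03% of listed TPM against 6.02% to 6.51% in the other 5. Markers of red blood cells summed to 20880 TPM in the low-Msx1 library of that litter, against 6423 to 9076 TPM elsewhere. In litter 2, red cell markers were again higher in the low-Msx1 library, at 9076 against 7306 TPM, and in litter 3 lower, at 7096 against 8117 TPM. Epithelial markers, which matter because Gata3 is also an epithelial gene, summed to 112 TPM in the low-Msx1 and 126 TPM in the high-Msx1 library of litter 1. The same sums were 115 and 116 TPM in litter 2, then 129 and 118 TPM in litter 3. Markers of distal mandible mesenchyme summed to 938 and 1013, 992 and 1054, and 1024 and 1024 TPM (low-Msx1 and high-Msx1) in litters 1 to 3. The part of these measures in the Gata3 values was not tested.

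The Gata3 locus (ENSMUSG00000015619, chromosome 2, 9857078 to 9890034, minus strand, GRCm38) overlaps other annotated genes. Listed among them are 4930412O13Rik on the opposite strand, at 1.86 to 4.16 TPM, and 9230102O04Rik on the same strand, at 0 to 2.49 TPM. For 4930412O13Rik the low-Msx1 library held more than its littermate in litters 1 and 3, at 3.37 against 1.86 TPM and 2.06 against 1.90 TPM, and less in litter 2, at 2.78 against 4.16 TPM. For 9230102O04Rik the low-Msx1 library was listed at 0 against 1.39 TPM in litter 1, both libraries at 0 in litter 2, and the low-Msx1 library held more in litter 3, at 2.49 against 1.29 TPM. Whether the quantification used strand is not given in the sources used here.

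Gata2, the closest relative of Gata3 in the family, showed no common direction. Litter 1 had 4.92 TPM in its low-Msx1 and 4.31 TPM in its high-Msx1 library. The same pair of values was 6.89 and 7.19 TPM for litter 2, then 6.30 and 5.19 TPM for litter 3. The groups overlapped, and the libraries of litter 1 were lower than those of litter 2 whatever their Msx1. Within litters the log2(TPM + 1) differences were 0.16, -0.05 and 0.24. The authors' deposited table has Gata2 at 0.13 ± 0.33 (unadjusted p = 0.685). Between the labels it was at 5.77 ± 1.24 and 5.83 ± 1.35 TPM (mutant and control label, SD, n = 3 each). Limma put the labelled difference at -0.01 ± 0.20 log2 units (adjusted p = 0.994), and at 0.05 with median-of-ratios scaling and 0.04 with quantile normalization. The table's standard error leaves room for a Gata2 change of moderate size in either direction. Gata2 lies on chromosome 6 at 88193891 to 88207032 (ENSMUSG00000015053, plus strand, GRCm38).

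The balance of Gata3 and Gata2 therefore differed between littermates. The ratio of Gata3 to Gata2 TPM was 0.989 in the low-Msx1 and 2.43 in the high-Msx1 library of litter 1. It was 0.644 and 1.28 for litter 2, then 1.12 and 1.62 for litter 3. It was lower in the low-Msx1 library of each litter. Between the low-Msx1 and high-Msx1 libraries, the closest values were 1.12 in litter 3 and 1.28 in litter 2. The difference between the 2 genes was not tested, because libraries were ordered by a measured value.

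**Figure D2:**
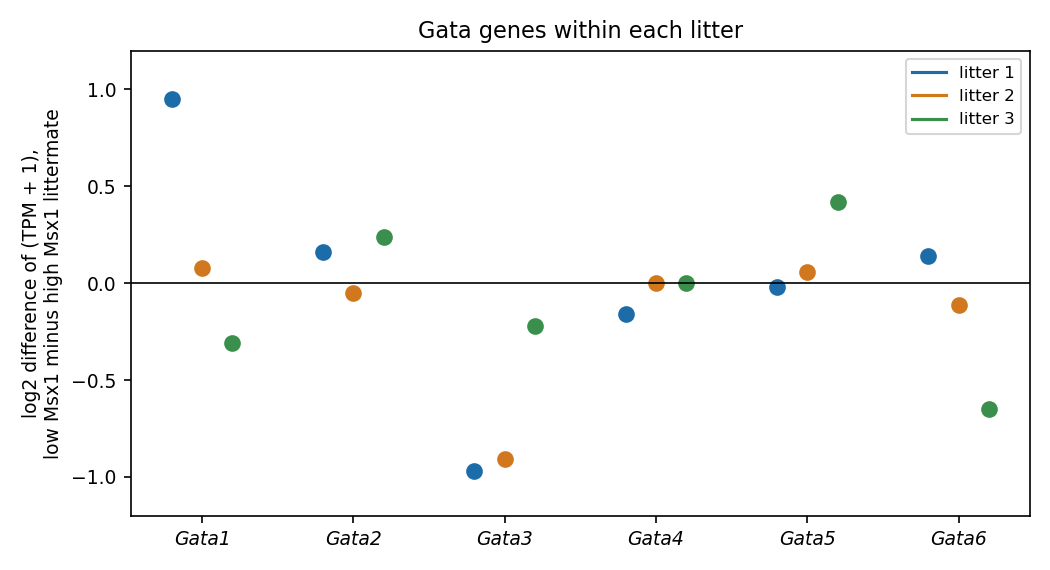
Difference in log2(TPM + 1) between the low-Msx1 and the high-Msx1 library of each litter, 1 point per litter and gene, with a line at 0. Gata3 is the only member with all 3 points below 0, at -0.97, -0.91 and -0.22; Gata4, Gata5 and Gata6 are compressed towards 0 by the added 1 TPM.

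Upstream sequence of Gata3, Gata2 and Gata1 is shown because these are the members with measurable levels. The 250 bases before a RefSeq start site (GRCm38.p6) are printed 5′ to 3′ on the gene's strand. Capitals mark TAATTG, the core letters recognised by Msx homeodomains, and GATA, the family's own core, on either strand. By the GENCODE annotation the Gata3 and Gata1 windows lie inside their own genes, which start further upstream (Gata1 spans 7959260 to 7978071). The antisense gene Gm13256 overlaps the Gata3 gene. The Gata3 window is chr2:9878601-9878850 (minus strand), the Gata2 window chr6:88193641-88193890 (plus strand, the more upstream of 2 listed starts) and the Gata1 window chrX:7967911-7968160 (minus strand).
Gata3: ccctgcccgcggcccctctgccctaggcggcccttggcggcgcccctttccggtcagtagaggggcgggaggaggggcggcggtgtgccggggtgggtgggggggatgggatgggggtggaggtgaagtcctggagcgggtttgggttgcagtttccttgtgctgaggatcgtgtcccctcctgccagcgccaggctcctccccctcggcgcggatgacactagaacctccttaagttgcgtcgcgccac
Gata2: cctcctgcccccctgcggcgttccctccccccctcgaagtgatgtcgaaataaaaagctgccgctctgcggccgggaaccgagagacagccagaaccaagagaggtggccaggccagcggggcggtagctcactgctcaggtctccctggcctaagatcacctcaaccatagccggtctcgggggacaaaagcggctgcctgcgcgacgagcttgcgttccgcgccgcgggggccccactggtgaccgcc
Gata1: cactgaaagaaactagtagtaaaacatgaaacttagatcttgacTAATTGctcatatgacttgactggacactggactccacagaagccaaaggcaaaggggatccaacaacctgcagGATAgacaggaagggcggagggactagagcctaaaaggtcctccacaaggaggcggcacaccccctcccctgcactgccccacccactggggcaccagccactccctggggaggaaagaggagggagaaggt

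Neither motif occurred in the Gata3 or Gata2 window. The Gata1 window held 1 TAATTG and 1 GATA match. Over all 32851 RefSeq windows of 250 bases, 7.17% held TAATTG or its complement CAATTA and 53.6% held GATA or TATC. The Gata3 and Gata2 windows were rich in G and C, at 70.0% and 67.2% with 19 and 22 CpG, against 54.0% with 2 CpG for Gata1 and a median of 52.4% with 6 CpG over all windows. No binding was measured in this series, and a missing match says only that these letters are not in the window.

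Within each litter, Gata1 and the markers of red blood cells were higher in the same library, though Gata1 differed by only 0.118 TPM in litter 2. How many of all tested genes share this order was not counted. The highest Gata1 value, 4.28 TPM, was in the litter 1 library labelled mutant, where the 9 markers found of 10 (Hbb-y, Hba-x, Hbb-bh1 and others) summed to 20880 TPM. The littermate had 1.73 TPM of Gata1 and 6423 TPM of markers. In litter 2 the low-Msx1 library had 1.23 TPM of Gata1 with 9076 TPM of markers and the high-Msx1 library 1.11 TPM with 7306 TPM. In litter 3 the low-Msx1 library had 0.895 TPM with 7096 TPM and the high-Msx1 library 1.35 TPM with 8117 TPM. Between litters the order did not hold: the litter 1 library labelled control had the lowest marker sum of the 6 and the second-highest Gata1. The direction relative to Msx1 was not common to the litters, at log2(TPM + 1) differences of 0.95, 0.08 and -0.31.

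Set against red cell RNA, Gata1 was at 1.26 to 2.69 TPM per 10000 TPM of red cell markers, with the highest values, 2.05 and 2.69, in the libraries of litter 1. The unscaled range of 4.78-fold rests on the litter 1 library labelled mutant, since Gata1 lay at 0.895 to 1.73 TPM in the other 5. The authors' deposited table has Gata1 at 0.32 ± 0.77 (unadjusted p = 0.682). Between the labels it was at 2.25 ± 1.76 TPM (mutant) and 1.28 ± 0.419 TPM (control; SD, n = 3 each), which limma put at 0.39 ± 0.35 log2 units (SE; adjusted p = 0.814). Without the library labelled mutant of litter 1 that difference was -0.02. Gata1 is on chromosome X at 7959260 to 7978071 (ENSMUSG00000031162, minus strand).

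**Figure D3:**
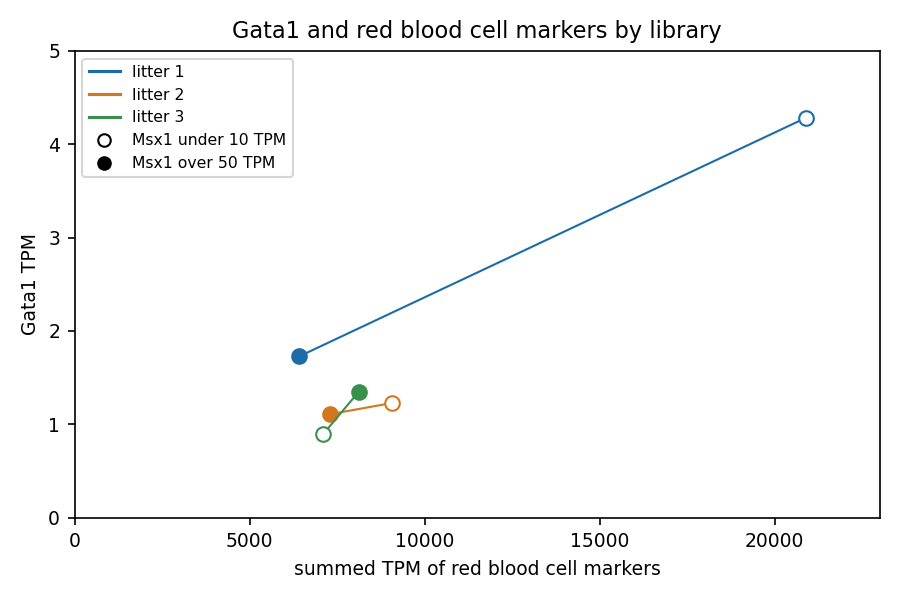
Gata1 TPM against the summed TPM of red blood cell markers in each library, both on linear axes from 0, littermates joined, open circles for Msx1 under 10 TPM. One library, labelled mutant in litter 1, stands apart at 20880 TPM of markers and 4.28 TPM of Gata1. Each line slopes upward, in litter 2 by only 0.118 TPM of Gata1.

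The erythroid partners and targets of Gata1 mostly had a positive sign in the authors' deposited table, but the litters did not share a direction. Their summed TPM in the low-Msx1 library was 3.26-fold that of its littermate in litter 1, where the library labelled mutant held 20225 against 6207 TPM, then 1.23-fold in litter 2 and 0.867-fold in litter 3. Globins made up most of the 20225 TPM, with Hbb-y at 9965, Hba-x at 7393 and Hbb-bh1 at 2768 TPM. These globins are also red cell markers, and the red cell marker sum had nearly the same ratios, 3.25, 1.24 and 0.874. The authors' deposited table adjusts p for 13 of the partners and targets, of which 12 have a positive and 1 a negative sign (median 0.38). Over all 14572 genes the median is 0.003 and 49.3% are negative in the authors' deposited table. None passed an adjusted p of 0.05. The smallest DESeq2 p of the authors' deposited table were those of Slc4a1, the red cell anion exchanger, at 0.55 ± 0.26, Nfe2, an erythroid and megakaryocytic transcription factor, at 1.18 ± 0.72, and Hbb-bh1, an embryonic globin, at 0.94 ± 0.80 (0.0351, 0.103 and 0.238, unadjusted). Nfe2 was at 3.64 and 1.79, 1.77 and 0.806, and 4.31 and 1.66 TPM (low-Msx1 and high-Msx1) in litters 1 to 3. Klf1, the erythroid Krüppel-like factor, differed by 0.98, 0.38 and 0.12 on the log2(TPM + 1) scale. Klf1 was the 1 of 13 tested list members whose low-Msx1 values all lay above the high-Msx1 values, as did 4.36% of all tested genes. Tal1, the helix-loop-helix partner in the Gata1 complex, differed by 0.50, -0.01 and -0.21 on that scale in litters 1 to 3. Its order matched that of Gata1 in litters 1 and 3. By the labels, 11 of 13 were higher under the mutant label, with a median log2 difference of 0.24 against -0.06 over all genes, and none passed limma's threshold. That count rests on the litter 1 library labelled mutant: without it, 5 of 12 were higher and 7 lower, with a median of -0.06 against -0.05 over all genes.

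Gata4, Gata5 and Gata6, which specify heart and endoderm, were at trace levels in these libraries. Gata4 was listed at 0 in 4 of 6 libraries and at 0.0514 and 0.176 TPM in those of litter 1. Gata5 was at 0.0469 to 0.397 TPM, highest in the library labelled control of litter 3. Gata6 was at 0.238 to 0.947 TPM, highest in the library labelled mutant of litter 3. Their average read support in the authors' deposited table, the base mean, was 0.685, 3.08 and 8.46 normalised counts per library, against 22.1 for Gata1, 120 for Gata2 and 169 for Gata3.

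At that support the differences of the heart and endoderm members were not measurable. The authors' deposited table has Gata5 at 1.12 ± 1.87 (p = 0.551), Gata6 at -0.64 ± 1.18 (p = 0.591) and Gata4 at -0.67 ± 3.99 (p = 0.868; no adjusted p), all unadjusted p. Gata6 was at 0.383 and 0.256, 0.292 and 0.394, and 0.238 and 0.947 TPM (low-Msx1 and high-Msx1) in litters 1 to 3, so that litter 1 went the other way from litters 2 and 3. The 3 loci are on chromosome 14 at 63198922 to 63271692 (Gata4), chromosome 2 at 180325133 to 180334699 (Gata5) and chromosome 18 at 11052064 to 11085635 (Gata6), in GRCm38. Gata5 and Gata6 each overlap an annotated gene on the opposite strand, Gata5os and 1010001N08Rik, not analysed here.

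Of 12 partners of the heart and endoderm members, 7 passed the filter. Hand1 and Hand2, heart genes that also mark the distal arch, were at 40.5 to 73.6 TPM and 210.0 to 261 TPM. Nkx2-5, Tbx5, Tbx20 and Zfpm2 (FOG2, a zinc finger cofactor of Gata4) stayed under 1 TPM in all 6 libraries. For 9 of the list the authors' deposited table adjusts p, and 7 of these have a negative and 2 a positive sign (median -0.13). Over all 14572 genes with an adjusted p, 49.3% were negative and the median was 0.003. Within the list, the smallest DESeq2 p of the authors' deposited table were those of Hand1 at -0.33 ± 0.19, Sox17 at 0.90 ± 0.74 and Hand2 at -0.13 ± 0.11 (0.0795, 0.229 and 0.251, unadjusted). None passed. Hand1 is also counted in the list of BMP genes below. Endoderm markers summed to 27.5 to 49.5 TPM over 8 genes, most of it Cldn6, a tight junction gene, at 22.1 to 32.0 TPM.

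RNA of 5 of the 6 related genes with a GATA-type zinc finger was far more abundant than that of the family itself. Trps1, a repressor that binds GATA sites and is known for its role in skeletal development, was at 43.4 to 51.5 TPM, several times the level of Gata3 in TPM. Gatad2a and Gatad2b, subunits of the NuRD repressor complex, were at 50.4 to 71.1 and 83.8 to 96.9 TPM. Gatad1 was at 87.6 to 113 TPM and Rere, an atrophin-family corepressor, at 71.1 to 149 TPM. Zglp1, a germ cell factor, was listed at 0 in every library.

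None of the relatives passed either test. The authors' deposited table gives a negative sign to 2 and a positive sign to 3 of the 5 it tested (median 0.02). Trps1, at -0.11 ± 0.11, Gatad1, at 0.10 ± 0.14, and Gatad2a, at -0.10 ± 0.16, had the smallest DESeq2 p of the authors' deposited table (0.341, 0.494 and 0.534, unadjusted). Trps1 was the 1 relative lower in the low-Msx1 library of all 3 litters, with log2(TPM + 1) differences of -0.22, -0.05 and -0.04, and its groups overlapped. That order was shared by 11.9% of all tested genes. By the labels 1 of 5 was higher and 4 were lower under the mutant label, with a median log2 difference of -0.13 and none past limma's threshold. Of all tested genes, 65.4% were lower under the mutant label.

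The cofactors were detected in nearly full number, and none passed a test. Zfpm1 (FOG1), which binds the amino-terminal finger of GATA factors, was at 4.45 to 6.19 TPM. The bridging proteins Lmo2 and Ldb1 were at 3.89 to 7.16 and 117 to 143 TPM, and Lmo4 was at 99.0 to 119 TPM. The authors' deposited table has 6 of 14 cofactor genes with a negative and 8 with a positive sign (median 0.05), and none passed. The smallest DESeq2 p of the authors' deposited table belonged to Lmo4, at -0.13 ± 0.14, Zfpm2, at -0.80 ± 0.88, and Mta3, at 0.15 ± 0.24 (0.348, 0.359 and 0.540, unadjusted). Lmo4 was lower in the low-Msx1 library of all 3 litters, but by only 0.02 log2 units in litter 2, and 11.9% of all tested genes had that order.

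**Figure D4:**
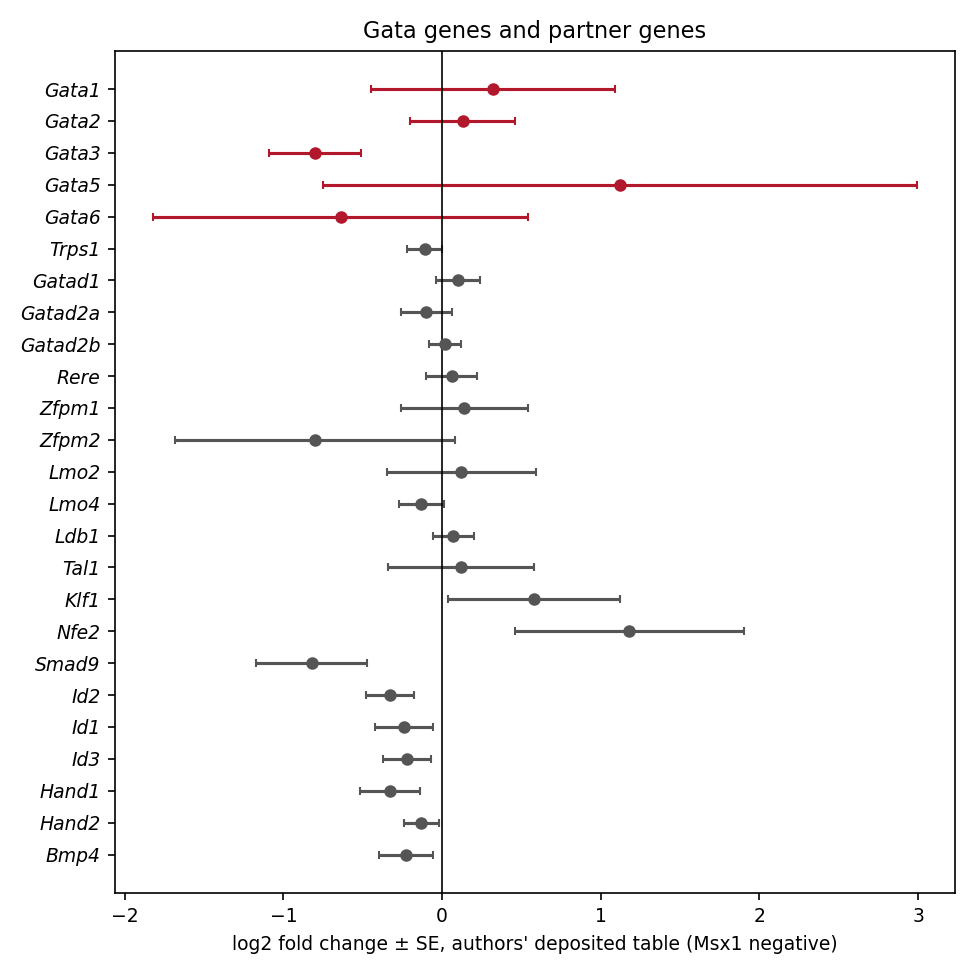
Log2 fold change with its standard error in the authors' deposited table for Gata genes (red) and other genes (grey), on the scale where Msx1 is negative. Gata4, without an adjusted p, is left out. The grey genes are a selection from the lists of relatives, cofactors, erythroid genes and BMP genes. The BMP genes not drawn run from Bmp2 at -0.45 to Smad4 at 0.10, with Bmp7 at 0.04 and Smad1 at -0.03 between them. Gata3 lies at -0.80 and Gata2 at 0.13, Gata5 and Gata6 have wide bars, and no gene shown passed an adjusted p of 0.05.

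Genes of BMP signalling that stand beside Gata2 and Gata3 mostly had the sign of Gata3. The authors' deposited table has 17 of 19 with a negative and 2 with a positive sign (median -0.22), none past an adjusted p of 0.05. Over all 14572 genes with an adjusted p, 49.3% were negative and the median was 0.003. Some of the 17 hardly differed: Bmpr1a, Smad6 and Smad7 stood at -0.0, Smad1 at -0.03 and Bmpr1b at -0.05. The smallest DESeq2 p of the authors' deposited table were those of Smad9, a BMP signal transducer, at -0.82 ± 0.35, Id2, a BMP-responsive inhibitor of helix-loop-helix factors, at -0.33 ± 0.15, and Hand1 at -0.33 ± 0.19 (0.0205, 0.0288 and 0.0795, unadjusted). Of the 17 that passed the filter, 8 were lower in the low-Msx1 library of all 3 litters, against 11.9% of all tested genes. They were Bmp4, Id1, Id2, Id3, Smad9, Tbx2, Tbx3 and Msx2. Msx2, itself floxed in every embryo, was at 4.22 and 9.62 TPM in litter 1 but differed by under 0.1 TPM in litters 2 and 3, at 6.81 and 6.81 and at 6.28 and 6.30 TPM (low-Msx1 and high-Msx1). The list was chosen with the behaviour of BMP genes in these data known, so it is no independent evidence of direction.

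As for Gata3, the low-Msx1 values of 3 of the 17, Smad9, Id2 and Id1, all lay below the high-Msx1 values, against 4.95% of all tested genes. Smad9 was at 1.46 and 3.42, 1.88 and 2.33, and 1.26 and 2.40 TPM (low-Msx1 and high-Msx1) in litters 1 to 3. Id2 was at 64.9 and 85.8, 70.9 and 82.4, and 61.3 and 78.7 TPM. Id1 was at 116 and 126, 105 and 137, and 106 and 124 TPM. The gap was narrow for Id1, at 116 against 124 TPM. The ligand gene Bmp4 was at 43.5 and 53.5, 36.9 and 43.5, and 39.5 and 44.3 TPM, and its groups met at 43.5 TPM. By the labels, 7 of 17 were higher and 10 lower under the mutant label, with a median of -0.02 and none past limma's threshold. Of all tested genes, 65.4% were lower under the mutant label, with a median of -0.06.

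Across the 6 libraries, some genes ran parallel to a Gata gene, and likeness is given as a description. Pearson r of log2(TPM + 1) with Gata3 was highest for Zmpste24 (0.984), a prelamin protease gene, Itgb1bp1 (0.981), an integrin-binding adaptor gene, Rtf1 (0.978), a Paf1 complex gene, Yipf3 (0.976) and Cdk5rap3 (0.973), among 8672 genes with a mean of at least 5 TPM. It was at or above 0.9 for 72 of these 8672 genes. Cdk5rap3, which was at 2.22 and 13.4, 1.46 and 11.2, and 3.48 and 9.45 TPM (low-Msx1 and high-Msx1), had the widest range of these 5. The lowest r belonged to Cldn5 (-0.989), an endothelial tight junction gene, Armc10 (-0.988) and Nsmce1 (-0.985). Cldn5, singled out by its r with Gata3, had all low-Msx1 values above the high-Msx1 values, as did 4.36% of all tested genes. The 8 endothelial markers together lay at 96.0 to 100 TPM (low-Msx1) and 95.3 to 113 TPM (high-Msx1).

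Gata2 and Gata1 had other neighbours. With Gata2 the highest r were those of Slc35a4 (0.990), Bysl (0.986), Eef1d (0.980), Mpc2 (0.978) and Naxe (0.976), and the lowest those of Lonrf1 (-0.988), Pgrmc2 (-0.981) and Skil (-0.977). These genes separated litter 2 from litter 1, as Gata2 did. With Gata1 the highest were Smim1 (0.981), which carries a red cell blood group antigen, Slc39a8 (0.981), Irf2bp1 (0.969), Msl2 (0.964) and Traip (0.963), and the lowest Zfp330 (-0.993), Tspan6 (-0.987) and Fanca (-0.985). The library labelled mutant of litter 1 was the extreme library for each of these 8 genes, as for Gata1. Gata3 had an r of -0.274 with Gata2 and -0.378 with Gata1. The points share library preparation and litter. With only 6 libraries and 8672 or 8673 genes compared, some high values of r would be found in any case.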

How the data were processed

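RNA from the distal mandible of 6 mouse embryos was measured as polyadenylated transcripts. The authors deposited 1 TPM value per gene and library for 21827 genes, summing to 716208 to 735601 over the listed genes. Salmon 1.5.2, DESeq2 and the mm10 build are named, per the submitters' processing notes, without roles, settings or annotation release. Per the file headers, the authors' deposited table holds a base mean (signal, a mean of normalised counts), a log2 fold change, its standard error, the Wald score and p-values; missing adjusted p-values stayed missing. TPM keep no depth, so no counting interval is given.

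The labelled comparison was fitted with limma 3.58.1 (R 4.3.3, variance trend, robust moderation) on log2(TPM + 1), over the 12152 genes that reached 1 TPM in 3 or more libraries, with Benjamini-Hochberg adjustment over all of them and a threshold of 0.05; fold changes of low genes are understated on this scale. The code was tested on simulated data. An exact permutation test of 3 against 3 cannot go below 0.1 and was not used. Littermates were compared as values only. The members, lists and naming rule were chosen with earlier results of these data known. The rule named all members, for each list the genes past the threshold or else the 3 with the smallest p in the authors' deposited table, and for each tested member the 5 most and 3 least correlated genes, without predicted genes, clones, pseudogenes and sex-linked control genes; others were named after their values were seen. The design text states that littermates share a litter number, which pairs them; deviations from the label means correlated at -0.05, -0.03 and -0.03 within litters 1 to 3. Promoter windows are RefSeq's (GRCm38.p6; 4 of 6 members matched), loci GENCODE's (GRCm38). Of the genes in the lists, Ahsp was not matched by symbol.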

Additional observations from a re-analysis of the deposited data

How the results depend on the processing

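Labelled differences of Gata1, Gata2 and Gata3 stayed uncalled under every alternative run (pseudocount, filter, scaling, moderation, replicate block, left-out libraries), with limma adjusted p of 0.755 to 0.993, 0.857 to 0.998 and 0.794 to 0.988. The replicate block (litter as a term) gave 0.39, -0.01 and 0.05, and 0 genes higher and 0 lower; it changed no call. The Gata2 difference of -0.01 changed sign with median-of-ratios scaling (0.05) and quantile normalization (0.04). Leaving out 1 library at a time gave -0.02 to 0.64 for Gata1 (negative without the library labelled mutant of litter 1), -0.18 to 0.10 for Gata2 and -0.22 to 0.32 for Gata3. For Gata2 the sign changed without the library labelled mutant of litter 1 or 3 or control of litter 2 or 3, for Gata3 without mutant of litter 2 or 3 or control of litter 2. Over those 6 settings the count of genes was 0 to 1 higher and 0 to 1 lower: Gm5244 was called higher without the litter 1 control library and Rpl29 lower without the litter 1 mutant library. It was 0 under the other alternatives. Within litters, Gata3 stayed negative in each litter under 4 alternatives, at -1.09 to -0.88, -1.04 to -0.91 and -0.31 to -0.24. The changed pseudocounts among them could alter only the size. Only median-of-ratios scaling and quantile normalization could have reversed the sign. A mean of at least 5 TPM removes Gata1, and Gata4, Gata5 and Gata6 could be fitted only without a filter (log2 differences of -0.05, -0.16 and 0.30; limma adjusted p = 0.898, 0.823 and 0.814). Low read support limits what can be said of Gata4, Gata5 and Gata6. Chosen after seeing the data, leaving out the library labelled mutant of litter 1 took the erythroid genes higher under the mutant label from 11 of 13 to 5 of 12.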
